A study of Mus musculus with 24 samples.

Results

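The Schlafen genes measured here were Slfn1, Slfn2, Slfn3, Slfn4, Slfn5, Slfn8 and Slfn9 of the mouse. All 7 members were found by symbol among the 55376 genes of the count table. The family was chosen by its expression, because Slfn1 had been seen to rise in TTPdeltaARE MPP3 cells. The genotype difference in MPP3 cells is therefore given for every member as a description, with no test. The other comparisons were tested, except that Slfn1 between the WT cell types is also only described. Bulk mRNA was sequenced from HSCs, the stem cells of the bone marrow from which blood forms, and from MPP3 cells, the multipotent progenitors biased to granulocytes and monocytes. Both were sorted by surface markers, the HSCs as Lineage- Sca1+ cKit+ cells that were CD34-, Flk2- and CD150+.

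The TTPdeltaARE mice were homozygous for a deletion of an AU-rich element in the 3′ untranslated region of Zfp36, which encodes the RNA-binding protein tristetraprolin (TTP). The deletion is not limited to blood cells, so that HSCs and MPP3 cells developed in a changed animal. The WT mice were littermates, all mice were male, and none was treated. Young HSCs came as 4 Y-WT and 4 Y-TTPdeltaARE libraries and middle-aged HSCs as 5 M-WT and 3 M-TTPdeltaARE libraries. Young MPP3 cells came as 4 Y-WT and 4 Y-TTPdeltaARE libraries, and no middle-aged MPP3 library was analysed here. Sample numbers run in separate sets for middle-aged HSCs, young HSCs and MPP3 cells, so that age or cell type cannot be told apart from the set. The labels do not say that libraries of a group came from separate mice, and p-values measure the spread between these libraries, which may be technical.

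The family takes its name from the German word for sleep, since Slfn1 slows the growth of T-cell precursors that are made to express it. Slfn1 and Slfn2 encode short proteins, Slfn3 and Slfn4 intermediate ones, and Slfn5, Slfn8 and Slfn9 long ones with a helicase-like part. Slfn2 keeps resting T cells and monocytes quiescent, and Slfn4 is known from myeloid cells of inflamed tissue. Many Schlafen genes respond to type I interferon, and the mouse genes lie in a single cluster that includes duplicated copies.

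In GENCODE M21 on GRCm38 the cluster spans 344.4 kb at chr11:82942341-83286726. It holds the 7 members, the antisense gene Slfn5os, the pseudogene Slfn10-ps and Slfn14. Slfn5 (82951349 to 82964840), Slfn2 (83065112 to 83070678), Slfn1 (83116849 to 83122670), Slfn4 (83175186 to 83190216) and Slfn3 (83191330 to 83215154) lie on the plus strand. Slfn9 (82978390 to 82991830) and Slfn8 (83002158 to 83020810) lie on the minus strand. The coding sequence had 1011 bases in Slfn1, 1134 in Slfn2, 1920 in Slfn3, 1806 in Slfn4, 2652 in Slfn5, and 2730 in both Slfn8 and Slfn9. Over aligned bases the coding sequences of Slfn8 and Slfn9 were 92.7% identical, as were those of Slfn3 and Slfn4, whereas Slfn1 and Slfn2 were 71.3% identical.

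Near-identical copies limit what a read count can say of these genes. Of all 100-base stretches of its transcripts, Slfn1 shared 0% with another gene, Slfn2 0.128%, Slfn4 0.271%, Slfn3 2.92%, Slfn8 3.38%, Slfn9 3.71% and Slfn5 6.4%. Slfn8 and Slfn9 shared them with each other and with Slfn10-ps. Slfn5 shared them with Slfn5os, which overlaps its exons on the other strand, and with Gm28017 and Klhl24, and strand use in counting is not given in the sources used here. Counts of Slfn8, Slfn9, Slfn3 and Slfn5 are uncertain to that extent.

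The promoter windows of Slfn1 and Slfn2 are shown because these were the members with the largest differences in MPP3 cells. They hold 300 bases around the RefSeq start on GRCm38.p6, most of them before it, at chr11:83116570-83116869 for Slfn1 and chr11:83064862-83065161 for Slfn2, both on the plus strand. Over 266 aligned bases they were 57.5% identical.
Slfn1 promoter window: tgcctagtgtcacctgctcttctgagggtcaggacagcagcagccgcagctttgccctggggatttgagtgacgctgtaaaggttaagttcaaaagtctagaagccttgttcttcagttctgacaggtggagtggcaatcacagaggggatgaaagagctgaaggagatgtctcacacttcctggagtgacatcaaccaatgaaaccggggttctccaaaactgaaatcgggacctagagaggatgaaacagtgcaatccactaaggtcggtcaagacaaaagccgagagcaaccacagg
Slfn2 promoter window: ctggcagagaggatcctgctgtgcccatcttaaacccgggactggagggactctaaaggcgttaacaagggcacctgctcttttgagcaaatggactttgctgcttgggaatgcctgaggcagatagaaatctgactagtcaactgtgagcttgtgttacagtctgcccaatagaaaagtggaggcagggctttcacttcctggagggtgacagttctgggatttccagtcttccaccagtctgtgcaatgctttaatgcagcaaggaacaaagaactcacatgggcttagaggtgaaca

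All 7 members matched a RefSeq window, Slfn8 with 2 starts. The core of the interferon-stimulated response element (ISRE, read here as GAAA, any 2 bases and GAAA on either strand) was found in 3 of the 7, and in 3.44% of all 32851 windows of the same length. The Slfn5 match starts at -155 from the start site, that of Slfn9 at -45, and that of Slfn8 at -48 or, from its other start, at -136. The windows are printed with the match in capitals, from chr11:82951922-82951981 (plus strand), chr11:83020824-83020883 and chr11:82991841-82991900 (both minus strand). The Slfn5 match runs into a stretch of A, while those of Slfn8 and Slfn9 lie on the opposite strand and have the same letters in promoters that were 84.9% identical over 292 aligned bases.
Slfn5 window: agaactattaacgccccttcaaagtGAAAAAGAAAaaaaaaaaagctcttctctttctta
Slfn8 window: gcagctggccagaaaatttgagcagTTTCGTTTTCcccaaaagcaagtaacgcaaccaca
Slfn9 window: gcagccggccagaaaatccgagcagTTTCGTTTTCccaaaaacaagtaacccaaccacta

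The gamma-activated site, read as TTC, any 3 bases and GAA, was in none of the 7 windows and in 8.3% of all windows. TATAAA was in that of Slfn4 and in 13.6% of all windows. These letters describe the windows, and no binding was measured.

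TTP binds AU-rich stretches in 3′ untranslated regions, so the pentamer ATTTA was counted there in the longest coding transcript of each gene. It was absent from Slfn1 (597 bases), Slfn2 (345 bases) and Slfn3 (39 bases). It occurred 2 times in Slfn8 (921 bases), 3 times in Slfn4 (922 bases), 5 times in Slfn9 (2786 bases) and 9 times in Slfn5 (3136 bases). It was held by 61.7% of 20484 genes, with a median region of 803 bases. The longer TATTTAT, which contains the pentamer, was found 2 times in Slfn5, 1 time in Slfn4 and in 25.6% of all genes. The sites of Slfn8 and Slfn9 are shown with ATTTA in capitals because the annotated regions of these copies differ in length. Sites 1 and 2 of each lie at like positions. Sites 3 to 5 of Slfn9 start at bases 1923, 1950 and 2737, beyond the 921 bases annotated for Slfn8. Sequence past that end was not examined in Slfn8, so the copies were not compared at those sites.
Slfn8 site 1, chr11:83002738-83002758: ttgaaaacATTTAtgaaaata
Slfn8 site 2, chr11:83002389-83002409: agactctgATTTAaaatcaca
Slfn9 site 1, chr11:82980836-82980856: gttaatacATTTAtgaaaata
Slfn9 site 2, chr11:82980484-82980504: agactctgATTTAaaatcaga
Slfn9 site 3, chr11:82979241-82979261: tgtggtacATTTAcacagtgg
Slfn9 site 4, chr11:82979214-82979234: attcagctATTTAaaacaatc
Slfn9 site 5, chr11:82978427-82978447: ggggaaacATTTAaaatgtaa

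The counts of a library summed to between 24261371 and 39934554. Values are given as CPM, the usual count relative to library size, with all 24 libraries scaled by the trimmed mean of M values (TMM). Values of 1 to 20 were even in 67.3% to 76.6% of genes in a library, and the Slfn1 counts were even in all 16 HSC libraries. A low count may therefore hold fewer independent fragments than its number, and the reason was not tested. Levels of different genes were compared only per length, as CPM divided by the exon length in kilobases (RPKM). Zfp36, the targeted gene, was higher in every TTPdeltaARE library than in every WT library of its comparison, at 85.4 to 105 CPM against 32.5 to 69.2 in young HSCs, 95.0 to 106 against 41.6 to 60.4 in middle-aged HSCs and 81.7 to 124 against 20.5 to 38.4 in MPP3 cells. The median correlation of a library with its own group was 0.898 to 0.960, lowest in Y-WT HSC replicate 3. Y-TTPdeltaARE MPP3 replicate 4 had the lowest scaling factor, 0.731, against 0.891 to 0.968 in the rest of its group. The study's own analysis used fewer libraries of that group, without naming them, so values are also given without replicate 4. The HSC markers summed to 1686 to 2819 CPM in HSC libraries and to 861 to 1284 CPM in MPP3 libraries, and the progenitor markers Cd48, Cd34, Mpo and Flt3 summed to 141 to 463 CPM and 2333 to 4126 CPM.

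In HSCs the order of the levels was led by Slfn2 at both ages and in both genotypes. Mean RPKM in Y-WT HSC was 36.4 for Slfn2, 17.8 for Slfn8, 12.2 for Slfn9, 3.62 for Slfn5, 1.68 for Slfn3, 0.545 for Slfn1 and 0.339 for Slfn4. The libraries of neighbours in this order did not overlap down to Slfn3, while those of Slfn1 and Slfn4 did. In Y-WT MPP3 the order was another one, with 26.8 RPKM for Slfn9, 19.3 for Slfn8, 5.04 for Slfn2, 3.05 for Slfn3, 2.32 for Slfn5, 0.170 for Slfn4 and 0.0424 for Slfn1. In Y-TTPdeltaARE MPP3 Slfn2 again stood first, at 29.4 RPKM, followed by Slfn8 (16.8), Slfn9 (13.8), Slfn5 (5.09), Slfn1 (3.69), Slfn3 (2.75) and Slfn4 (0.107). There Slfn8 overlapped with Slfn9, Slfn5 with Slfn1, and Slfn1 with Slfn3.

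**Figure D1:**
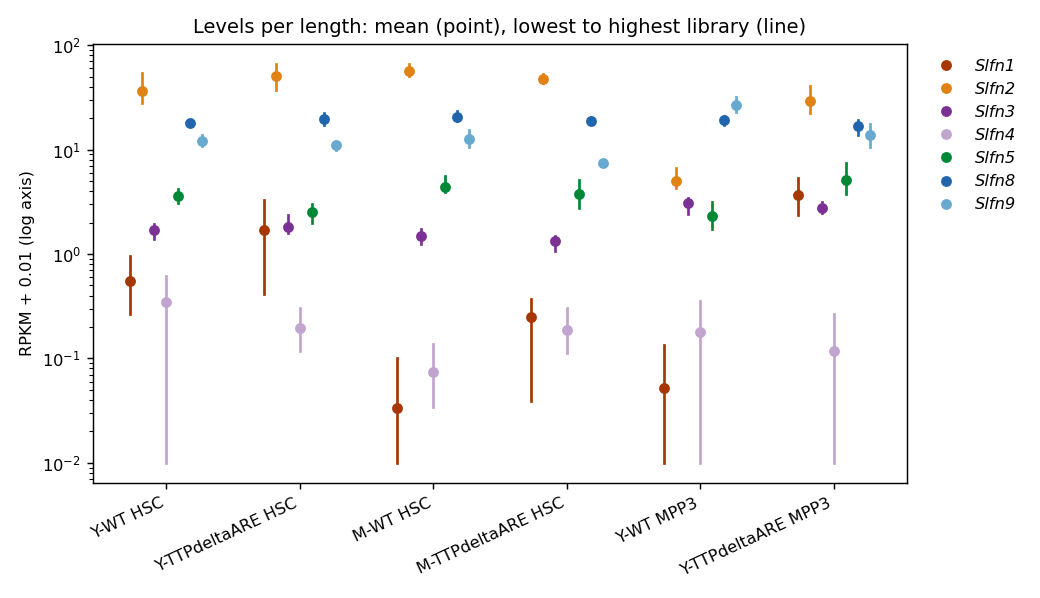
Level per length of each member in each group (RPKM plus 0.01, log axis). Points are means and lines run from the lowest to the highest library. Slfn2 leads in 5 of the 6 groups, and Slfn9 leads in Y-WT MPP3.

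A gene is named as called where its adjusted p was under 0.05, its fold above 1.2 in either direction and its average level above 1.5 log2 CPM. Shares of all genes called are taken over all genes tested, also those below this level, which cannot be called. How the family differs between the sorted cell types was asked in WT mice. Slfn2 was lower in MPP3 cells than in HSCs, Slfn9 and Slfn3 were higher, Slfn5 was lower, and Slfn8 was at nearly the same level. Slfn2 was measured at 89.5, 49.7, 46.6 and 56.2 CPM in Y-WT HSC and at 11.0, 7.48, 7.04 and 7.99 CPM in Y-WT MPP3, so that the groups lie far apart. The fitted log2 fold change was -2.91 ± 0.26 (SE), with an adjusted p of 8.3e-05 by edgeR's quasi-likelihood test over 22816 genes. Slfn9 was at 81.8, 80.0, 63.9 and 64.6 CPM in Y-WT HSC and at 148, 191, 137 and 163 CPM in Y-WT MPP3, again without overlap (log2 1.103 ± 0.16, adjusted p = 0.0011). Slfn3 was at 6.40, 5.24, 6.61 and 4.73 CPM in Y-WT HSC and at 11.5, 11.7, 8.21 and 10.3 CPM in Y-WT MPP3 (log2 0.82 ± 0.19, adjusted p = 0.012).

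Slfn5 was at 19.2, 23.7, 22.5 and 26.2 CPM in Y-WT HSC and at 12.1, 19.8, 15.9 and 10.9 CPM in Y-WT MPP3, and the groups overlapped through Y-WT MPP3 replicate 2 alone. Its log2 fold change was -0.67 ± 0.18 (adjusted p = 0.025). The call was lost, at adjusted p between 0.0505 and 0.0753, without any 1 of 6 libraries, namely Y-WT HSC replicates 2, 3 and 4 and Y-WT MPP3 replicates 1, 3 and 4. Slfn8 had a mean of 72.8 ± 1.98 CPM (SD, n = 4) in Y-WT HSC and 78.9 ± 8.11 CPM (SD, n = 4) in Y-WT MPP3. Its log2 fold change of 0.07 ± 0.08 (adjusted p = 0.50) turned to -0.11 with upper-quartile factors. Slfn1 and Slfn4 were below the average level of 1.5 log2 CPM that a call requires. Slfn1, at 1.78, 0.477, 0.743 and 1.06 CPM in Y-WT HSC, had 0, 8, 1 and 2 reads in the Y-WT MPP3 libraries (log2 -3.63 ± 1.08, a description with no test).

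In this comparison 4 of the 7 members in the fit were called, 2 in each direction, where 22.2% of all genes tested were called in either direction. The median log2 fold change was -0.67 over the members and -0.16 over all genes tested. The Y-WT MPP3 libraries are also the controls of the contrast by which the family was chosen, so that low Slfn1 there is part of that choice. The natural killer markers summed to 7.01 to 10.1 CPM in Y-WT HSC and to 0.467 to 2.15 CPM in Y-WT MPP3, where Klrb1c was the 1 called of 2 tested (lower), and of the T-cell markers 1 of 10 was called higher and 2 lower in MPP3 cells. Klrb1c had an average level of 2.10 log2 CPM, against -0.55 for Klrd1, and so weighs most in the natural killer sum. Klrd1 had a log2 fold change of -0.99 ± 0.72. The paper lists Klrb1c among genes raised in aged HSCs, and whether this sum follows natural killer cells was not tested. The part of these markers in the differences was not tested.

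**Figure D2:**
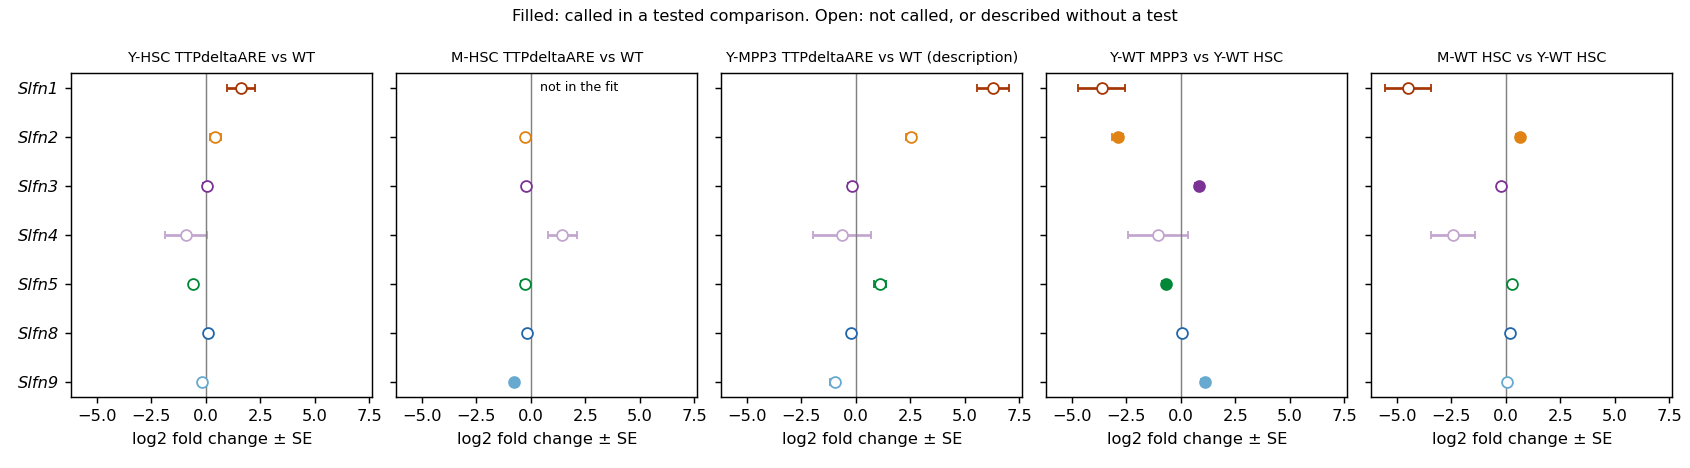
Fitted log2 fold changes (points) with standard errors (bars) of the 7 members in 5 comparisons. Filled points passed all limits of a call (adjusted p under 0.05, average logCPM above 1.5, fold above 1.2). The MPP3 genotype panel is a description without a test, and Slfn1 was left out of the edgeR fit of middle-aged HSCs by the filter on low counts.

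In MPP3 cells of young mice, Slfn1 went from almost no reads in WT to a level above that of Y-WT HSC in TTPdeltaARE. The Y-WT MPP3 libraries held 0, 0.231, 0.0335 and 0.0519 CPM, from 11 reads in all, and the 0 in replicate 1 allows up to 0.106 CPM (3 reads, counting error only). The Y-TTPdeltaARE MPP3 libraries held 9.84, 8.61, 4.41 and 4.62 CPM, from 108 to 307 reads each. All libraries of the latter lie above all of the former, with a fitted log2 fold change of 6.30 ± 0.73. Since 8 of the 11 WT reads came from replicate 2, the value rose to 7.63 without that library, and it was 6.47 without Y-TTPdeltaARE MPP3 replicate 4.

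Slfn2 had the next largest difference. It was at 11.0, 7.48, 7.04 and 7.99 CPM in Y-WT MPP3 and at 68.2, 37.4, 42.7 and 47.3 CPM in Y-TTPdeltaARE MPP3, with no overlap and a log2 fold change of 2.52 ± 0.22. The Y-TTPdeltaARE MPP3 libraries overlapped with the range of 46.6 to 89.5 CPM in Y-WT HSC. Slfn5 was at 12.1, 19.8, 15.9 and 10.9 CPM in Y-WT MPP3 and at 46.6, 27.9, 30.8 and 23.6 CPM in Y-TTPdeltaARE MPP3 (log2 1.12 ± 0.27). Its antisense partner Slfn5os differed alike (log2 0.98 ± 0.30), and without strand the reads from the stretch where their exons overlap cannot be told apart.

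Slfn9 differed the other way, from 148, 191, 137 and 163 CPM in Y-WT MPP3 to 80.2, 82.2, 104 and 63.1 CPM in Y-TTPdeltaARE MPP3. The groups did not overlap, and the log2 fold change was -0.98 ± 0.21. The pseudogene Slfn10-ps, which shares stretches with it, had a log2 fold change of -0.74 ± 0.19. Slfn8, the near copy of Slfn9, was at 85.1, 74.0, 86.4 and 70.0 CPM in Y-WT MPP3 and at 62.4, 78.5, 77.4 and 55.8 CPM in Y-TTPdeltaARE MPP3 (log2 -0.21 ± 0.17). Slfn3 had a log2 fold change of -0.18 ± 0.19 and Slfn4, with 0 to 39 reads in a library, of -0.65 ± 1.33.

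Of the 7 members, 3 were higher without overlap, where 5.05% of 19023 genes were, and 1 was lower without overlap, where 4.91% were. These counts come from the contrast that chose the family, and nothing is read from them. Without replicate 4 the log2 fold changes were 2.58 for Slfn2, 1.27 for Slfn5 and -0.84 for Slfn9.

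**Figure D3:**
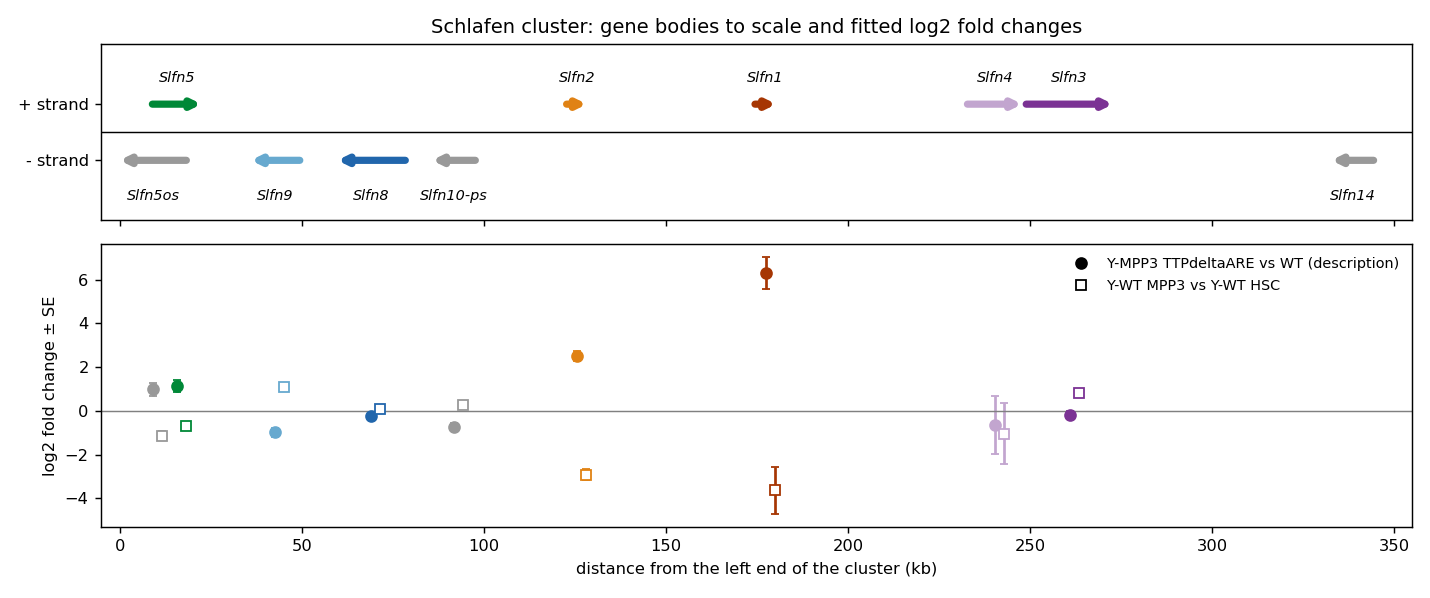
Genes of the Schlafen cluster drawn to scale by strand (upper panel, distance in kb from its left end) and their log2 fold changes with standard errors in 2 comparisons (lower panel). Grey genes are not members. In MPP3 cells Slfn1 stands at 6.30 and Slfn2 at 2.52, whereas Slfn9, Slfn8 and Slfn10-ps lie below 0.

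Markers of other cell types moved with these values. Markers of natural killer cells (Ncr1, Klrb1c, Gzma and Klrd1) summed to 0.467 to 2.15 CPM in Y-WT MPP3, where Gzma was at 0, and to 11.8 to 18.2 CPM in Y-TTPdeltaARE MPP3. The 10 T-cell markers summed to 89.2 to 105 CPM in Y-WT MPP3 and 131 to 192 CPM in Y-TTPdeltaARE MPP3, the 8 monocyte and macrophage markers to 455 to 791 and 806 to 1481 CPM. The 4 erythroid markers summed to 11.6 to 27.2 and 48.2 to 90.4 CPM, and the 4 plasmacytoid dendritic markers to 56.5 to 75.3 and 91.7 to 128 CPM. Genes of high level weigh most in such sums. Among the plasmacytoid dendritic markers this was Bst2 (average 6.14 log2 CPM, against -0.07 for Siglech), which is also in the interferon-stimulated list below. Among the T-cell markers these were Lat (5.77) and Lck (5.39), against -0.22 for Cd3g and -0.70 for Cd3e. The sums of the B-cell markers (43.4 to 119 and 58.3 to 147 CPM) and the neutrophil markers (7.04 to 88.8 and 14.2 to 138 CPM) overlapped. In that contrast 1 of 3 natural killer, 2 of 8 T-cell, 2 of 8 monocyte and 1 of 4 erythroid markers tested were called higher, and 0 of the 5 B-cell, 5 neutrophil and 3 plasmacytoid dendritic ones. None of these lists held a marker called lower, and 1.71% of all genes were called. The part of such cells in the Schlafen values was not tested. In bulk libraries, a change in the share of cells of a type and a change of RNA per cell cannot be told apart.

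In young HSCs the question was whether the genotype also changed the family there. Slfn5 was at 19.2, 23.7, 22.5 and 26.2 CPM in Y-WT HSC and at 15.0, 17.0, 19.2 and 12.5 CPM in Y-TTPdeltaARE HSC, each below the lowest WT library, the nearest by a small margin. The log2 fold change was -0.57 ± 0.14, with an adjusted p of 0.27 over 24381 genes, and the exact permutation p was 0.0286, the smallest that 4 against 4 libraries allow (adjusted p = 0.17 over 14 tests). Slfn1 was at 1.78, 0.477, 0.743 and 1.06 CPM in Y-WT HSC and at 6.13, 4.17, 0.752 and 1.6 CPM in Y-TTPdeltaARE HSC. Only replicates 1 and 2 of the latter stood above all WT libraries, and the log2 fold change of 1.61 ± 0.65 had an adjusted p of 0.60. Slfn2 was at 62.5 to 109 CPM in Y-TTPdeltaARE HSC against 46.6 to 89.5 CPM in Y-WT HSC, with overlap (log2 0.43 ± 0.24, adjusted p = 0.71).

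Slfn9 (log2 -0.19 ± 0.10), Slfn8 (0.09 ± 0.10) and Slfn3 (0.04 ± 0.19) had adjusted p values of 0.71 to 0.94. Slfn4 ranged from 0 to 65 reads among the Y-WT HSC libraries alone, and its log2 fold change of -0.91 ± 0.98 has little precision. The quasi-likelihood test of edgeR called 0 of the 7 members tested, and 0.0246% of all genes were called. An unadjusted p under 0.05 was found for 2 of the 7 members and for 1799 of all 24381 genes. Zfp36, the targeted gene, was itself not called by this test in young HSCs (log2 0.96 ± 0.21, adjusted p = 0.24), although its groups did not overlap. The paper used edgeR with the same limits, without naming the test. It reports Zfp36 as significantly raised in young HSCs, among far more changed transcripts than were called here. The absence of a call there therefore does not show that a member is unchanged. DESeq2 called 1 member, Slfn5 (adjusted p = 0.038), and the share of all genes that it called was not counted. Of the 7, 0 were higher without overlap, against 4.04% of all genes, and 1 was lower, against 1.97%. The T-cell markers summed to 77.7 to 111 CPM in Y-WT HSC and 122 to 221 CPM in Y-TTPdeltaARE HSC, and the natural killer markers to 7.01 to 10.1 and 10.3 to 21.9 CPM, with 0 markers of either list called. The natural killer sum rests mainly on Klrb1c (3.53 log2 CPM on average, against 0.83 for Klrd1 and -1.42 for Ncr1). The erythroid markers summed to 14.4 to 20.2 CPM in Y-WT HSC and 40.9 to 68.2 CPM in Y-TTPdeltaARE HSC, with Hbb-bt called higher (log2 1.604 ± 0.18, adjusted p = 0.028). All 10 T-cell markers tested had an unadjusted p under 0.05, where 1799 of all 24381 genes did. The part of these markers in the Slfn1, Slfn2 and Slfn5 values was not tested.

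In middle-aged HSCs Slfn9 was lower in TTPdeltaARE. It was at 66.0, 63.5, 91.2, 84.8 and 67.1 CPM in M-WT HSC and at 41.6, 46.3 and 45.9 CPM in M-TTPdeltaARE HSC. The groups did not overlap, and the log2 fold change of -0.79 ± 0.12 had an adjusted p of 0.0090 over 21136 genes. The exact permutation p was 0.0179, the smallest that 5 against 3 libraries allow (adjusted p = 0.17 over 14 tests). Without M-TTPdeltaARE HSC replicate 1, which left 2 libraries in that group, the log2 fold change was -0.73 and the adjusted p 0.0503. Its near copy Slfn8 was at 73.6 to 83.6 CPM in M-TTPdeltaARE HSC and at 76.3 to 96.4 CPM in M-WT HSC (log2 -0.17 ± 0.08, adjusted p = 0.36), and Slfn10-ps had a log2 fold change of 0.12 ± 0.10 (adjusted p = 0.56).

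Slfn2 was at 76.9, 72.9 and 88.7 CPM in M-TTPdeltaARE HSC and at 83.4, 89.0, 110.0, 93.8 and 94.1 CPM in M-WT HSC. The log2 fold change of -0.29 ± 0.10 had an adjusted p of 0.17, although DESeq2 (0.046) and edgeR without the filter on low counts (0.032) called it. Slfn1 had 0, 0, 2, 6 and 0 reads in M-WT HSC and 20, 2 and 24 reads in M-TTPdeltaARE HSC, with overlap, and the filter on low counts left it out of the edgeR fit. Its exact permutation p was 0.0357 (adjusted p = 0.17 over 14 tests). Without the filter the log2 fold change was 3.27 (adjusted p = 0.16), and with all 24 libraries in the fit 3.31 (adjusted p = 0.29). Slfn5 had a log2 fold change of -0.29 ± 0.18, Slfn3 of -0.21 ± 0.17 and Slfn4 of 1.44 ± 0.67, with adjusted p values of 0.47, 0.58 and 0.32. Of the 6 members tested 1 was called, lower, where 1.41% of all genes were called in either direction. The same 1 member was lower without overlap, against 3.31% of all genes, and 0 were higher, against 8.25%. Progenitor markers summed to 141 to 170 CPM in M-TTPdeltaARE HSC and to 201 to 249 CPM in M-WT HSC, with Cd34 called lower (log2 -0.74 ± 0.09). Cd34, which was also a marker of the sort, had the highest level of the list. Of the others, Mpo was lower (-0.41 ± 0.57) and Flt3 (0.34 ± 0.13) and Cd48 (0.14 ± 0.39) were higher by the fitted values, with none called. The HSC markers summed to 2699 to 2819 CPM in M-TTPdeltaARE HSC and 2222 to 2562 CPM in M-WT HSC, with Procr called higher. The T-cell markers (68.3 to 86.1 and 57.2 to 64.2 CPM) and the neutrophil markers (3.14 to 4.31 and 5.96 to 13.8 CPM) also separated the groups, with 0 called in either list. The level that a call requires was reached by 2 of 9 T-cell markers tested and by 0 of 5 neutrophil ones. An unadjusted p under 0.05 was found for 5 of the T-cell markers, all 5 neutrophil markers and 3385 of all 21136 genes. The part of these differences in the Slfn9 value was not tested.

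**Figure D4:**
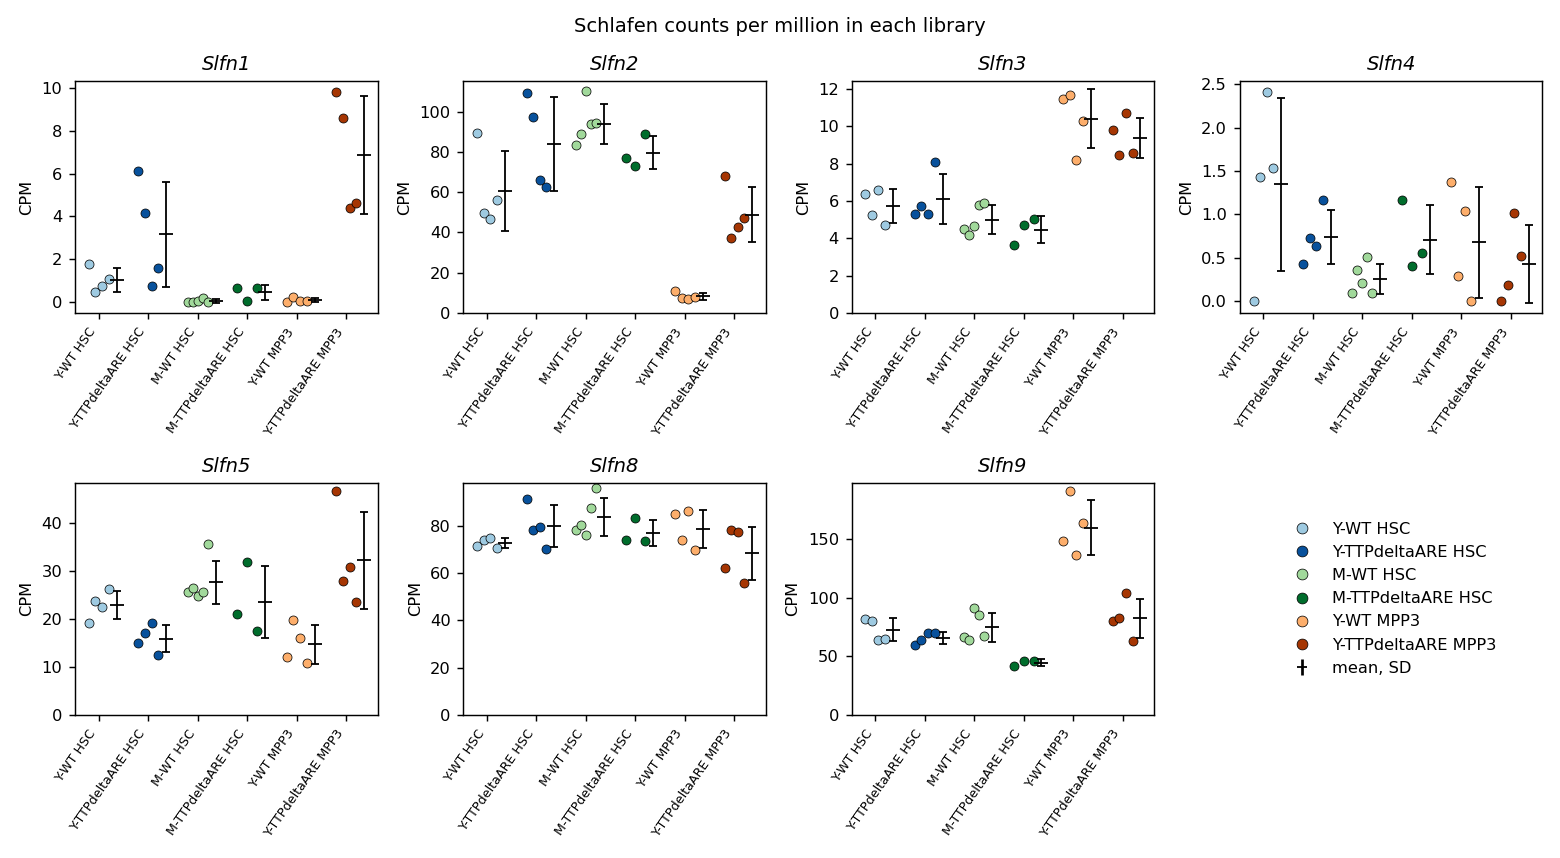
CPM of each member in each library (points), with the mean and SD of each group (black). Slfn1 is near 0 in M-WT HSC and Y-WT MPP3, and Slfn9 lies lower in TTPdeltaARE than in WT without overlap in middle-aged HSCs and in MPP3 cells.

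The effect of age was read from the WT HSCs. Slfn2 was at 83.4 to 110.0 CPM in M-WT HSC and at 46.6 to 89.5 CPM in Y-WT HSC, where replicate 1 alone exceeded 56.2 CPM. The log2 fold change was 0.63 ± 0.17 (adjusted p = 0.025), and it was the only one of the 7 members tested to be called, where 12.1% of all 22280 genes tested were. The call was lost, at adjusted p between 0.0530 and 0.0793, without M-WT HSC replicate 3 or 5 or without Y-WT HSC replicate 2, 3 or 4. Slfn1 had 8 reads over the 5 M-WT HSC libraries, 3 of them at 0, and 14 to 68 reads in each Y-WT HSC library. Its log2 fold change was -4.50 ± 1.05 (adjusted p = 0.015), but its average level lay below the limit for a call. Slfn8 (log2 0.20 ± 0.08), Slfn5 (0.27 ± 0.13) and Slfn4 (-2.44 ± 1.00) had adjusted p values of 0.095, 0.16 and 0.10, and Slfn9 (0.03 ± 0.12) and Slfn3 (-0.21 ± 0.16) of 0.88 and 0.35.

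Markers moved with age as well. The HSC markers summed to 2222 to 2562 CPM in M-WT HSC and 1686 to 2082 CPM in Y-WT HSC, with 5 of 6 called higher. The progenitor markers summed to 201 to 249 and 313 to 463 CPM, with 3 of 4 called lower. The T-cell markers summed to 57.2 to 64.2 and 77.7 to 111 CPM, with 4 of 10 called lower. Of the natural killer markers, Klrb1c was called higher (log2 1.97 ± 0.14), whereas Klrd1, below the level for a call, had a log2 fold change of -4.17 ± 1.08, and Ncr1 and Gzma were not in the fit. Their part in the Slfn1 and Slfn2 values was not tested.

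Whether the genotype effect differed between the ages was tested as an interaction over the 16 HSC libraries. Slfn9 had the smallest p among the members, with an interaction of -0.64 ± 0.16 on the log2 scale, that is a more negative effect of TTPdeltaARE in middle-aged HSCs (adjusted p = 0.22 over 28189 genes). Slfn2 followed, with -0.77 ± 0.30 (adjusted p = 0.29), since it was higher in young and lower in middle-aged TTPdeltaARE HSCs by the fitted values. EdgeR's quasi-likelihood test called 0 of the 7 members, and 0.0213% of all genes were called. An unadjusted p under 0.05 was found for 3 of the 7 members and for 4238 of all 28189 genes. DESeq2 called 1 member, Slfn9 (adjusted p = 0.033), with the share of all genes that it called not counted. The difference of Slfn9 between the ages thus depends on the tool.

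A list of 30 interferon-stimulated genes was set beside the family, since many Schlafen genes respond to interferon. In MPP3 cells 4 of 30 were called higher in TTPdeltaARE and 0 lower, where 1.71% of all genes were called, among them the antiviral GTPase gene Mx1 (log2 1.93 ± 0.28, adjusted p = 0.0053) and Ifi27l2a (1.34 ± 0.27, adjusted p = 0.037). The median log2 fold change over the 30 was 0.14, against 0.04 over all genes. The likelihood ratio test and DESeq2 each called 9 of them. Leaving out a library gave 2 to 5, with 2 without Y-WT MPP3 replicate 1, 2 or 4 or Y-TTPdeltaARE MPP3 replicate 1. The shares of all genes called under these alternatives were not counted, so nothing is read from their numbers. The main test's calls are those named here. The lowest of the called were Irf7, the transcription factor that drives interferon production (1.09 ± 0.16, adjusted p = 0.0053), and Zbp1 (1.11 ± 0.23, adjusted p = 0.041). In HSCs, 0 of 30 were called between the genotypes at either age. An unadjusted p under 0.05 was found for 3 at the young and 11 at the middle age. Over all genes it was found for 1799 of 24381 and for 3385 of 21136. DESeq2 called 0 and 3 of the 30 and the likelihood ratio test 0 and 1, with the shares of all genes not counted. The medians were -0.04 and -0.11, against -0.07 and 0.01 over all genes. Between the WT cell types 3 were called higher and 6 lower in MPP3 cells, where 22.2% of all genes were called. All 30 had the level that a call requires. Of the 22816 genes tested 13433 had it, and 5069 of these were called. Ifi27l2a (1.97 ± 0.22) and Oas2 (0.92 ± 0.21) were highest and Mx2 (-0.92 ± 0.22) and Ifi44 (-0.87 ± 0.15) lowest of the called interferon-stimulated genes. The 3 members with an ISRE core in the promoter window, Slfn5, Slfn8 and Slfn9, had log2 fold changes of 1.12, -0.21 and -0.98 in MPP3 cells.

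Genes that flank the cluster were followed out to 500 kb, among 61 rows that are not Schlafen genes. In MPP3 cells 4 of 30 tested were called higher in TTPdeltaARE and 0 lower, against 1.71% of all genes called. The chemokine gene Ccl6 (log2 2.68 ± 0.30, adjusted p = 0.0012) and Wfdc18 (1.88 ± 0.26, adjusted p = 0.0040) were highest, and Ccl3 (1.26 ± 0.24, adjusted p = 0.028) and Wfdc17 (1.44 ± 0.28, adjusted p = 0.029) were lowest. Ccl3 alone of these rows was called between the genotypes in HSCs, at 1.66 ± 0.17 in young and 1.73 ± 0.26 in middle-aged HSCs, with adjusted p of 0.028 and 0.0095, where 0.0246% and 1.41% of all genes were called.

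Likeness of pattern was measured as Pearson's r over the 24 libraries in log2 CPM, among 13448 genes. The libraries share their 6 groups, so that r mainly follows differences between groups, and it is given as a description. Most like Slfn1 were Cxcr3 (r = 0.91), Cd226 (0.88), Cxcl9 (0.86), Klrk1 (0.83) and Sema4a (0.83). Most like Slfn2 were Traf1 (0.96), Tspan33 (0.94) and Chd7 (0.92). Slfn9 was closest to Gm49150 (0.93), Smarcc1 (0.92) and Dnmt1 (0.90), and Slfn3 to Pask (0.94), Rrm1 (0.93) and Tbc1d31 (0.92). Slfn8 reached 0.81 with Gab1, 0.77 with Kdm5b and 0.77 with Xrn1, Slfn5 0.72 with Slc8b1, 0.72 with Anpep and 0.71 with Fgr, and the low Slfn4 0.85 with Ank2, 0.84 with Gm4117 and 0.83 with Gm10718.

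Among the members themselves the patterns fell apart. Slfn2 and Slfn9 ran opposite (r = -0.82), as did Slfn2 and Slfn3 (-0.72), while Slfn3 and Slfn9 ran together (0.77). Slfn1 had r of 0.26 with Slfn2, and the near copies Slfn8 and Slfn9 had 0.03.

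Of the other rows of the family, Slfn10-ps was at 23.7 to 36.6 CPM in HSC libraries, at 32.4 to 43.1 CPM in Y-WT MPP3 and at 17.4 to 26.5 CPM in Y-TTPdeltaARE MPP3. Slfn5os was lower in Y-WT MPP3 than in Y-WT HSC (log2 -1.15 ± 0.21, adjusted p = 0.0035), as Slfn5 was. Slfn14, known from erythroid precursors, had 0 to 48 reads in a library, and Slfnl1, a Schlafen-like gene on chromosome 4, had 0 to 11.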

How the data were processed

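Bulk mRNA-seq of 24 libraries was used as deposited. Per the paper, the authors used Trim Galore! with Cutadapt for trimming, STAR for alignment to mm10 (with a GENCODE M22 index) and featureCounts for counting at the gene level. Multimapping settings are not given in the sources used here, and the labels and the methods name different SMARTer kits. The deposited values are raw counts per gene symbol. The lowest chi-square per gene between replicates of a group was 18.2, so that none was taken as a repeat deposit.

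For each comparison, the counts of its own groups were fitted with edgeR 4.0.16 (R 4.3.3): filterByExpr (minimum count 10, minimum total count 15), TMM factors, quasi-likelihood test and Benjamini-Hochberg adjustment over all genes tested. Calls required an average logCPM above 1.5, an adjusted p below 0.05 and a fold above 1.2. Standard errors were taken from the log2 fold change and its F statistic (their ratio after a square root of F). Member CPM was also compared by two-sided exact permutation tests. Alternatives were the likelihood ratio test, DESeq2 1.42.0, other scaling factors, no filter, no limits, all libraries in the fit, a replicate block, and each library left out.

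Lengths, positions and 3′ untranslated regions came from GENCODE M21 (GRCm38), not the release used for counting, and promoter windows are from RefSeq. The members and lists were chosen with earlier results of these data known. Named are all members, other rows starting with Slfn, Zfp36, the 5 genes most like Slfn1 and 3 most like each other member, and the 2 highest and 2 lowest called genes of the interferon and flanking lists.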

Additional observations from a re-analysis of the deposited data

Results flagged for a closer look

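Slfn3 stood at 8.06 CPM in Y-TTPdeltaARE HSC replicate 4, against 5.32 to 5.71 CPM in the rest of its group, a gap of 0.859 of the group's range, which is above Dixon's limit for 4 samples. Without this library its log2 fold change in young HSCs was -0.055 instead of 0.04. Slfn5 stood at 35.6 CPM in M-WT HSC replicate 5, against 24.7 to 26.5 CPM in the rest, a gap of 0.835 of the range and above the limit for 5 samples. These were 2 of 35 groups examined, and chance gives about 1 in 20.

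The fitted log2 fold change of Slfn5 with genotype was -0.57 in young HSCs, where it did not pass edgeR's quasi-likelihood test (adjusted p = 0.27), and 1.12 in MPP3 cells, where it was not tested. Every TTPdeltaARE library lay below every WT library in young HSCs and above every WT library in MPP3 cells. In young HSCs the nearest libraries were at 19.15 CPM in TTPdeltaARE and 19.21 CPM in WT. In middle-aged HSCs the groups overlapped, at 17.5 to 31.9 CPM in TTPdeltaARE and 24.7 to 35.6 CPM in WT. The difference between the cell types was not tested, and the MPP3 contrast is the one by which the family was chosen.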

How the results depend on the processing

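Under other settings with every library kept, 311 of the member log2 fold changes counted as unchanged, 7 passed the threshold, 1 lost it and 2 changed sign. With a library left out these were 372, 0, 12 and 6, and 1 value moved beyond its spread. In the tested comparisons, unchanged means the same direction and side of the threshold. In the MPP3 genotype contrast, which was not tested, it means a shift smaller than the SD within groups. DESeq2 called 1 member in young HSCs, 2 in middle-aged HSCs and 1 in the interaction. The shares of all genes called under the alternatives were not counted. Without the filter on low counts, 2 members were called in middle-aged HSCs and 2 by age (Slfn8 added, adjusted p = 0.049), and without the limits 2 by age (Slfn1 added). Leaving out a library gave 0 to 1 called member in middle-aged HSCs, 0 to 1 by age, and log2 fold changes of 5.90 to 7.63 for Slfn1 in MPP3 cells. Upper-quartile factors shifted the median of all genes by -0.18 in WT MPP3 against HSC and by 0.12 in the interaction, and turned Slfn8 to -0.11 in the former and Slfn9 to -0.060 by age. Leaving out a library gave -0.053 to 0.11 for Slfn9 by age, with a sign change to -0.053, -0.022, -0.011 and -0.031 without M-WT HSC replicate 3, M-WT HSC replicate 4, Y-WT HSC replicate 3 and Y-WT HSC replicate 4. Slfn3 in young HSCs ranged from -0.055 to 0.17, negative without Y-TTPdeltaARE HSC replicate 4, and Slfn5 in the interaction from -0.060 to 0.36, negative without M-TTPdeltaARE HSC replicate 2. The cause was not tested.

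Same-numbered libraries did not deviate together, with correlations of -0.15 to 0.21, so the numbers were not taken as pairs. With the replicate block, 0 members were called by age (Slfn2 0.67, adjusted p = 0.057), and the block changed no other member call. The interferon and single-level alternatives were chosen after seeing the data. Depth limits Slfn4, and Slfn1 in M-WT HSC, M-TTPdeltaARE HSC and Y-WT MPP3.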

Other observations

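Genes of the interferons, their receptors and signalling factors were followed beside the family. In MPP3 cells 4 of the 11 tested were called higher in TTPdeltaARE and 0 lower, where 1.71% of all genes were called. These were Irf8 (log2 3.25 ± 0.34, adjusted p = 7.6e-04), which directs monocyte and dendritic cell development, Irf5 (1.12 ± 0.13, adjusted p = 0.0016), and the interferon gamma receptor genes Ifngr1 (0.79 ± 0.12, adjusted p = 0.0062) and Ifngr2 (0.67 ± 0.11, adjusted p = 0.0097). In middle-aged HSCs 1 of 11 was called, Irf5 (0.32 ± 0.06, adjusted p = 0.036), against 1.41% of all genes. In young HSCs edgeR's quasi-likelihood test called 0 of 12, with 3 at an unadjusted p under 0.05, where 1799 of all 24381 genes were. Ifnb1 was at 0 in all Y-WT MPP3 libraries.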
